A study of Mus musculus with 64 samples.

Results

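The genes described are 37 that encode proteins of the endoplasmic reticulum (ER), the compartment in which secreted and membrane proteins are folded. They were chosen by symbol, as a list of ER folding and secretion genes, out of 36273 gene symbols in the deposited table. The choice was made with earlier results of these data known. Shares of all genes set beside counts of the list are therefore a description and not an independent test. All 37 were found in the table, and all 37 passed the filter on low counts that left 10723 genes to test. By role they are 8 chaperones and cofactors, 3 J-domain proteins, 5 disulfide and proline isomerases, 3 stress sensors or factors, 6 genes of ER-associated degradation, 8 genes of the translocon with its partners and signal peptidase, and 4 subunits of the oligosaccharyltransferase. Their RNA was measured in cultured natural killer (NK) cells, innate lymphocytes that kill virus-infected and tumour cells and release cytokines.

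A protein bound for secretion enters the ER through the Sec61 channel, loses its signal peptide, receives sugars from the oligosaccharyltransferase and is folded by chaperones and disulfide isomerases. Proteins that fail to fold are passed to the SEL1L and HRD1 complex for degradation. When unfolded proteins build up, the sensors IRE1 (gene Ern1), ATF6 and PERK start the unfolded protein response, in which the factors XBP1 and cleaved ATF6 raise the transcription of chaperone genes through short promoter elements. Activated lymphocytes make large amounts of secreted protein, and their ER genes are known to be induced. Prostaglandin E2 (PGE2) is a lipid mediator that acts on NK cells through the receptors EP2 (gene Ptger2) and EP4 (gene Ptger4), both of which raise cyclic AMP.

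Bulk 3' mRNA sequencing gave 64 libraries in 18 groups, from splenic NK cells kept in culture for 5 days in IL-2 at a low dose and an IL-15 receptor complex. The cells came from GzmbCrePtger2-/-Ptger4fl/fl mice (DKO, 3 libraries a group), from Ptger2-/-Ptger4fl/fl mice (EP2KO, 4 a group) and from C57BL/6J mice (WT, 4 a group, but 2 for PGE2 without stimulation). Both mutant genotypes lack Ptger2 and carry floxed Ptger4, and only DKO carries Cre driven from Gzmb, a gene of cytotoxic cells. Each genotype was exposed to PGE2 at 100 ng/ml, to medium conditioned by PGE2-producing control BRAFV600E cells (CM), or to neither (untreated). Exposure lasted 5 h, either without stimulation or with an antibody against the activating receptor NK1.1 for the last 4 h, after 1 h of treatment alone. The labels give neither an age nor the source of each replicate, be it a mouse or a dish, so the spread behind every p-value may be technical.

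Library totals ran from 753973 to 1693750 counts, with a median of 1256163. Marker lists for T cells, for B and plasma cells, for neutrophils, for macrophages with dendritic cells and for melanoma cells each summed to at most 0.0467% of the counts in every library, whereas 10 NK cell markers summed to between 0.428% and 1.01%. Plasma cells are rich in ER RNA, and the 10 genes of the B and plasma cell list summed to 0.00575% ± 0.00127 of counts in stimulated WT with PGE2 and 0.00656% ± 0.00137 in stimulated untreated WT (SD, n = 4 each). In unstimulated untreated WT that list summed to 0.0105% ± 0.00118 (SD, n = 4). Of its genes, Ighm and Igkc were detected in every library, at means of 60.2 and 27.9 counts per 1e+06, and Jchain was at 0 in 12 of the 64 libraries, whereas Cd79a was at 0 in 61, Pax5 in 54 and Ms4a1 in 43. The part of these cells in the results was not tested. DKO libraries had Xist at a mean of 42.2 CPM (a gene's counts per 1e+06 of the library, scaled by TMM factors), against 650 in EP2KO and 696 in WT, and Ddx3y at 96.1 CPM, against 3.64 in EP2KO and 2.71 in WT. Sex and genotype therefore cannot be told apart in comparisons with DKO.

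The targeted receptor genes were looked at next. Ptger2 lay between 2.14 and 14.9 CPM in the DKO libraries and between 2.41 and 13.9 CPM in the EP2KO libraries, against 3.32 to 36.6 CPM in WT, on at most 47 counts a library. In untreated stimulated cells, where it was highest in WT, it averaged 11.1 ± 2.69 CPM in DKO (SD, n = 3) and 9.67 ± 3.45 CPM in EP2KO, against 25.2 ± 9.48 CPM in WT (SD, n = 4 each). Ptger4 averaged 59.2 CPM over the 18 DKO libraries, against 30.2 CPM over the 24 EP2KO and 29.7 CPM over the 22 WT libraries, so its RNA was not lower in the libraries labelled DKO. The counts come from the 3' ends of transcripts and no label says which exons of each gene were deleted, so neither gene checks the labels. DKO and EP2KO below mean the libraries labelled so.

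Untreated stimulated WT libraries fell into a pair of replicates 1 and 2 and a pair of replicates 3 and 4. A chi-square statistic of their counts per gene was 5 within the first pair and 2.6 within the second, but between 6.53 and 17.27 across the pairs, where the median over all 85 replicate pairs was 3.11. Of the 37 genes, 21 were higher in both of replicates 3 and 4 than in both of 1 and 2, 7 were lower in both, and 9 overlapped. Over all genes tested 28.4% were higher in both of replicates 3 and 4 and 28.9% lower, so the split ran through the whole table. Other groups held libraries as far apart: the statistic was 11.75 between replicates 1 and 3 of stimulated DKO with PGE2 and 15.84 between replicates 1 and 3 of stimulated DKO with CM. Comparisons that use this group are therefore also given with each pair left out, a choice made after seeing the data.

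Matches to ER stress elements in the promoters are shown first, since elements of this kind are known to serve the unfolded protein response at chaperone genes. RefSeq promoters (GRCm38.p6, 250 bases before to 50 bases after the start) were matched for 30 of the 37 genes and searched on both strands. The ER stress element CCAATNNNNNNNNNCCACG, bound by NF-Y at its left end and by ATF6 or XBP1 at its right end, was found in 8 of the 30 genes (26.7%). Among all 27025 genes with a promoter in the table it was found in 37 (0.137%). The compact form ATTGGNCCACG was found in 2 of the 30, Dnajb11 and Herpud1 (6.67%), and in 12 genes in all (0.0444%). The matches are shown 5′ to 3′ along the motif, with its fixed letters in capitals.
Hspa5 (chr2:34772025-34772043, plus strand): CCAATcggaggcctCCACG
Hsp90b1, distal (chr10:86705638-86705656, minus strand): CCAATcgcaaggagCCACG
Hsp90b1, proximal (chr10:86705533-86705551, plus strand): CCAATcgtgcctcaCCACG
Calr (chr8:84847075-84847093, plus strand): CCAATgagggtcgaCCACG
Canx (chr11:50325800-50325818, minus strand): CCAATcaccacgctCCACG
Creld2 (chr15:88819520-88819538, minus strand): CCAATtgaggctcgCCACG
Dnajc3 (chr14:118937827-118937845, plus strand): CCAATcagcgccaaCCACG
Pdia6 (chr12:17266491-17266509, plus strand): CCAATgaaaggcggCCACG
Syvn1 (chr19:6046532-6046550, plus strand): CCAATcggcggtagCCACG
Herpud1 (chr8:94386377-94386387, plus strand): ATTGGgCCACG
Dnajb11 (chr16:22857852-22857862, plus strand): ATTGGcCCACG

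The element of Hspa5 began 65 bases before the annotated start, those of Hsp90b1 212 and 107 bases before it, and the compact element of Herpud1 52 bases before it. The compact element of Dnajb11 began 7 bases after the start. The whole promoters of 3 genes are shown for the context of the elements, which are in capitals: Hspa5 and Hsp90b1 encode the main ER chaperones of their families, and Herpud1 carries the compact form.
Hspa5 (chr2:34771840-34772139, plus strand): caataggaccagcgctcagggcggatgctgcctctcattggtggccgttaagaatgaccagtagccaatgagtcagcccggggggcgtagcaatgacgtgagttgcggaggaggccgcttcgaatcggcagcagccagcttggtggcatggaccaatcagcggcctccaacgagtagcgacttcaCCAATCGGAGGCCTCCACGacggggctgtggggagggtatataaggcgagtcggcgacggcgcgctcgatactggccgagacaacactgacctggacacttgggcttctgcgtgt
Hsp90b1 (chr10:86705395-86705694, minus strand): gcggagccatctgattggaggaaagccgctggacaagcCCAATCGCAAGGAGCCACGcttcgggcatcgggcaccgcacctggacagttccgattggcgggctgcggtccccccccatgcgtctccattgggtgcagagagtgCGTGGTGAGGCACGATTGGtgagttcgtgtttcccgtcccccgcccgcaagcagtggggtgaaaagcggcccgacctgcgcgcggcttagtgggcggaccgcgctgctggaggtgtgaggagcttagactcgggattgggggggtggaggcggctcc
Herpud1 (chr8:94386179-94386478, plus strand): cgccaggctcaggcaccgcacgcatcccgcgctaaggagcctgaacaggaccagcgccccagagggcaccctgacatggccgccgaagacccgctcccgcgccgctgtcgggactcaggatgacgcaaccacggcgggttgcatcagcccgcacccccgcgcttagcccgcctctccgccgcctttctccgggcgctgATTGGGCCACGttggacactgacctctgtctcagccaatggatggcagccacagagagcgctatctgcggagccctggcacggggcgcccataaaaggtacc
The unfolded protein response element core TGACGTGG was found in none of the 30 promoters and in 0.714% of all genes, and the cAMP response element TGACGTCA in none of the 30 and in 2.03% of all genes. At shares that low, finding neither among 30 promoters says little about the list, and variants of these letters were not searched. A match describes letters in a window and is not a measured binding site.

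**Figure D1:**
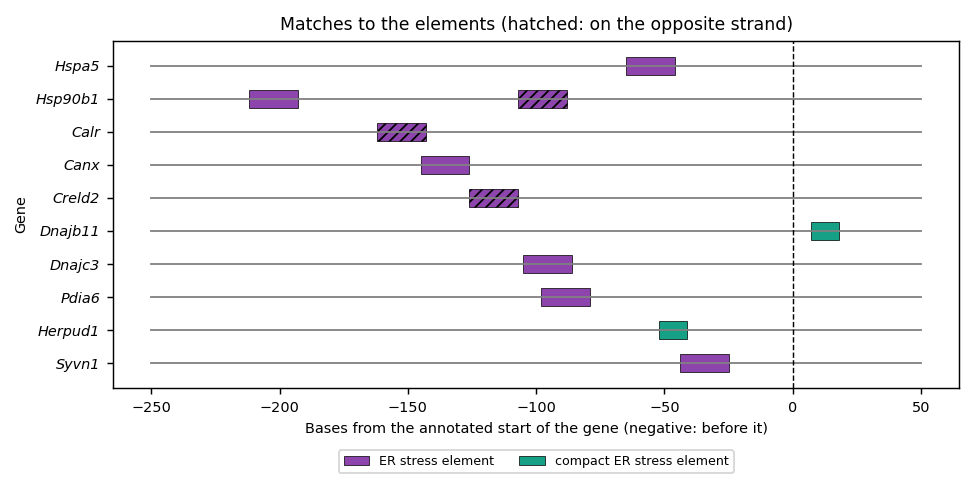
Positions of the matches to the ER stress element and its compact form in the promoters of 10 genes, in bases from the annotated start. All lay before the start except the match in Dnajb11, which began 7 bases after it.

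Stimulation through NK1.1 was compared first, in untreated WT cells. ER chaperone RNA rose: Hspa5 was 4.79-fold higher, and 24 of the 37 genes rose while none fell. Among all genes tested, 23% rose and 19.1% fell. The median log2 fold change was 0.75 over the 37 genes and 0.01 over all genes. Summed over the 37 genes, the share of counts was 1.2% ± 0.107 in stimulated and 0.63% ± 0.0208 in unstimulated untreated WT (SD, n = 4 each). Genes with high counts weigh most in such a sum: Hspa5 alone averaged 2757 counts per 1e+06 stimulated and 576 unstimulated. In bulk libraries a change in the number of cells that carry a transcript and a change in transcript per cell cannot be told apart. The groups did not overlap for 21 of the 24 genes (87.5%), against 73.1% of the 2465 genes that rose in the whole table, so that 56.8% of the list and 16.8% of all genes tested both rose and did not overlap.

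Of the 8 chaperones and cofactors, 7 rose. Hspa5 (chr2:34771970-34777547, plus strand), which encodes BiP, the ER chaperone of the Hsp70 family, stood at 2886, 2757, 2724 and 2662 CPM in the stimulated libraries and at 562, 638, 553 and 552 CPM in the unstimulated ones. Every stimulated library lay above every unstimulated one, and the log2 fold change was 2.26 ± 0.13 (SE; adjusted p = 1.07e-21 by edgeR's quasi-likelihood test with Benjamini-Hochberg adjustment over all genes, as for every adjusted p here). Hyou1, whose product exchanges nucleotide on BiP, had 99.8, 120, 95.1 and 77.1 CPM in stimulated cells, against 18.9, 19.1, 16.2 and 23.3 CPM in unstimulated cells. Its log2 fold change of 2.33 ± 0.24 was the highest of the list, again with no overlap. Hsp90b1, the ER member of the Hsp90 family, had 1155, 1172, 1247 and 1114 CPM in stimulated cells, against 628, 573, 644 and 571 CPM in unstimulated cells. Its libraries were tight in both groups and its log2 fold change was 0.96 ± 0.12. The lectin chaperones Calr and Canx, which hold newly made glycoproteins, rose by 1.47 ± 0.18 and 0.95 ± 0.14 on the log2 scale. Manf, a BiP-binding protein that can be secreted, rose by 1.1 ± 0.19. Creld2, an ER protein with disulfide isomerase activity, had 133, 104, 208 and 209 CPM in stimulated cells, against 85, 68.6, 59.1 and 85.6 CPM in unstimulated cells, and rose by 1.12 ± 0.18 with no overlap. Sdf2l1, a cofactor of BiP, did not pass the test and split by library pair, at 33.5, 25.9, 67.7 and 79.4 CPM in stimulated cells, against 66.9, 59, 41.9 and 75.6 CPM in unstimulated cells.

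All 3 J-domain genes, whose products hand clients to BiP, rose. Dnajb9 had 43.4, 53.2, 54.9 and 70.9 CPM in stimulated cells, against 21.1, 14.4, 12.4 and 16.6 CPM in unstimulated cells. Its groups did not overlap, and the log2 fold change was 1.76 ± 0.21. Dnajb11 had 171, 142, 252 and 255 CPM in stimulated cells, against 135, 119, 122 and 141 CPM in unstimulated cells, where replicate 2 stayed only just clear of the unstimulated range. Dnajb11 and Dnajc3 rose by 0.66 ± 0.15 and 0.48 ± 0.11.

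Of the 5 isomerases, 4 rose. Pdia6 had 391, 362, 505 and 584 CPM in stimulated cells, against 211, 223, 201 and 215 CPM in unstimulated cells, a log2 fold change of 1.11 ± 0.13. Pdia4 had 369, 365, 401 and 312 CPM in stimulated cells, against 187, 182, 171 and 168 CPM in unstimulated cells, a change of 1.03 ± 0.20. Neither overlapped, and Pdia4 was even across the stimulated libraries. P4hb, which encodes protein disulfide isomerase, rose by 0.51 ± 0.12, and Pdia3, which works with the lectin chaperones, by 0.33 ± 0.14 (adjusted p = 0.0463). Ppib, the ER cyclophilin, had the lowest value of the list, at -0.31 ± 0.20, and did not pass the test.

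Of the sensors and factors, Xbp1 and Atf6 rose and Ern1 did not pass the test. Xbp1 (chr11:5520659-5525893, plus strand), the transcription factor activated by IRE1, had 185, 195, 367 and 382 CPM in stimulated cells, against 142, 148, 125 and 153 CPM in unstimulated cells. All stimulated libraries lay above all unstimulated ones, with replicates 3 and 4 well above replicates 1 and 2. Counts per gene do not separate spliced from unspliced Xbp1. Atf6, a sensor that is itself cut to release a transcription factor, had 136, 145, 75.9 and 95 CPM in stimulated cells, against 58.9, 56.6, 44.8 and 57.3 CPM in unstimulated cells. Its split ran the other way, with replicates 1 and 2 above 3 and 4. The log2 fold changes were 0.99 ± 0.17 for Xbp1 and 1.05 ± 0.19 for Atf6. Ern1 (chr11:106394650-106487852, minus strand), the sensor IRE1 alpha that splices Xbp1 RNA, had 25.9, 19.4, 18.3 and 9.35 CPM in stimulated cells, against 22.5, 22.3, 23.8 and 20.8 CPM in unstimulated cells, which overlapped.

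In ER-associated degradation, 3 of 6 genes rose. Sel1l, the adaptor of the ubiquitin ligase HRD1, had 120, 152, 117 and 92.7 CPM in stimulated cells, against 71.2, 69.4, 61.9 and 43.2 CPM in unstimulated cells. Herpud1, a stress-induced membrane protein of the same complex, had 107, 85.6, 195 and 227 CPM in stimulated cells, against 93, 83.7, 74.3 and 76.4 CPM in unstimulated cells. Sel1l did not overlap between the groups, whereas replicate 2 of stimulated Herpud1 lay within the unstimulated range. Their log2 fold changes were 0.97 ± 0.15 and 0.90 ± 0.18, and that of Syvn1, which encodes HRD1, was 0.98 ± 0.24. Edem1, a factor for misfolded glycoproteins, and the derlins Derl1 and Derl2 did not pass the test, at -0.05 ± 0.17, 0.38 ± 0.16 and -0.09 ± 0.21.

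In the translocon group, 4 of 8 genes rose. Sec61a1, the pore of the channel, had 188, 152, 216 and 217 CPM in stimulated cells, against 102, 87.7, 104 and 85.6 CPM in unstimulated cells. Sec63, a J-domain protein that draws BiP to the channel, had 244, 223, 208 and 202 CPM in stimulated cells, against 116, 129, 106 and 107 CPM in unstimulated cells. Neither overlapped, and the log2 fold changes were 1.03 ± 0.12 and 0.93 ± 0.12. Ssr1 and Ssr3 of the translocon-associated complex rose by 0.75 ± 0.12 and 0.52 ± 0.12. The small channel subunits Sec61b and Sec61g, the translocon-associated subunit Ssr2 and the signal peptidase subunit Spcs2 did not pass the test, at -0.17 ± 0.21, 0.51 ± 0.26, 0.44 ± 0.20 and 0.14 ± 0.20. Of the 4 oligosaccharyltransferase genes Rpn1 alone passed, with 347, 227, 231 and 287 CPM in stimulated cells, against 141, 157, 151 and 147 CPM in unstimulated cells, at 0.87 ± 0.13. Ostc had 142, 114, 217 and 255 CPM in stimulated cells, against 155, 140, 128 and 164 CPM in unstimulated cells, which overlapped. Ostc, Ddost and Rpn2 stood at 0.30 ± 0.17, -0.09 ± 0.15 and 0.19 ± 0.14.

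The split of the stimulated WT libraries changed part of this count. Without replicates 1 and 2, 29 genes were called, the 24 and 5 more, of which Ern1 was lower at -0.78 (adjusted p = 0.0318). Without replicates 3 and 4, 22 were called, 17 of the 24 and 5 genes that were lower there: Sdf2l1, Ppib, Sec61b, Spcs2 and Ddost. The 7 lost were Dnajb11, Dnajc3, Pdia3, P4hb, Xbp1, Herpud1 and Syvn1, with Xbp1 at 0.38 (adjusted p = 0.0789), Herpud1 at 0.19 (adjusted p = 0.415) and Pdia3 at -0.01 (adjusted p = 0.977). Hspa5 and Hyou1 were at 2.25 and 2.46 in that fit.

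The chaperone response was also seen in the mutant genotypes. In untreated DKO cells 26 of the 37 genes rose and none fell, where 16.4% of all genes rose and 13.8% fell. In untreated EP2KO cells 27 rose and none fell, where 18.4% of all genes rose and 15% fell. In all, 23 genes (62.2%) rose in each of the 3 genotypes, against 13.2% of all genes, among them the 7 that were lost in WT without replicates 3 and 4. Of those 7, Pdia3 was also lost in 5 of 8 fits that each left out 1 library in WT, and in 4 of 6 in DKO. In DKO such fits also lost Spcs2, Ostc and Ssr2, in 5, 3 and 1 of 6, whereas the EP2KO count stayed at 27. The 8 that rose in none were Sdf2l1, Ppib, Ern1, Edem1, Derl2, Sec61b, Ddost and Rpn2. Hspa5 had 2827, 2693 and 2674 CPM in stimulated DKO cells, against 532, 536 and 615 CPM in unstimulated ones. In EP2KO it had 3083, 3090, 3319 and 2286 CPM in stimulated cells, against 703, 676, 686 and 816 CPM in unstimulated ones. The groups were far apart in both genotypes, with log2 fold changes of 2.28 ± 0.15 in DKO and 2.03 ± 0.13 in EP2KO. Xbp1, which split by pair in WT, had 302, 331 and 316 CPM in stimulated DKO cells, against 110, 165 and 127 CPM in unstimulated ones. Its log2 fold change was 1.24 ± 0.20 in DKO and 0.85 ± 0.17 in EP2KO, and that of Herpud1 was 0.95 ± 0.21 and 0.92 ± 0.18. The response differed between DKO and EP2KO, or between EP2KO and WT, for none of the 37 genes by edgeR or DESeq2, and none had an unadjusted p under 0.05 in either test. Untreated unstimulated levels differed for none by either tool. Of all genes 0.0373% were called higher and 0.0187% lower in DKO against EP2KO, and 0.0373% higher and 0.028% lower in EP2KO against WT, where 2 and 3 of the 37 had an unadjusted p under 0.05.

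**Figure D2:**
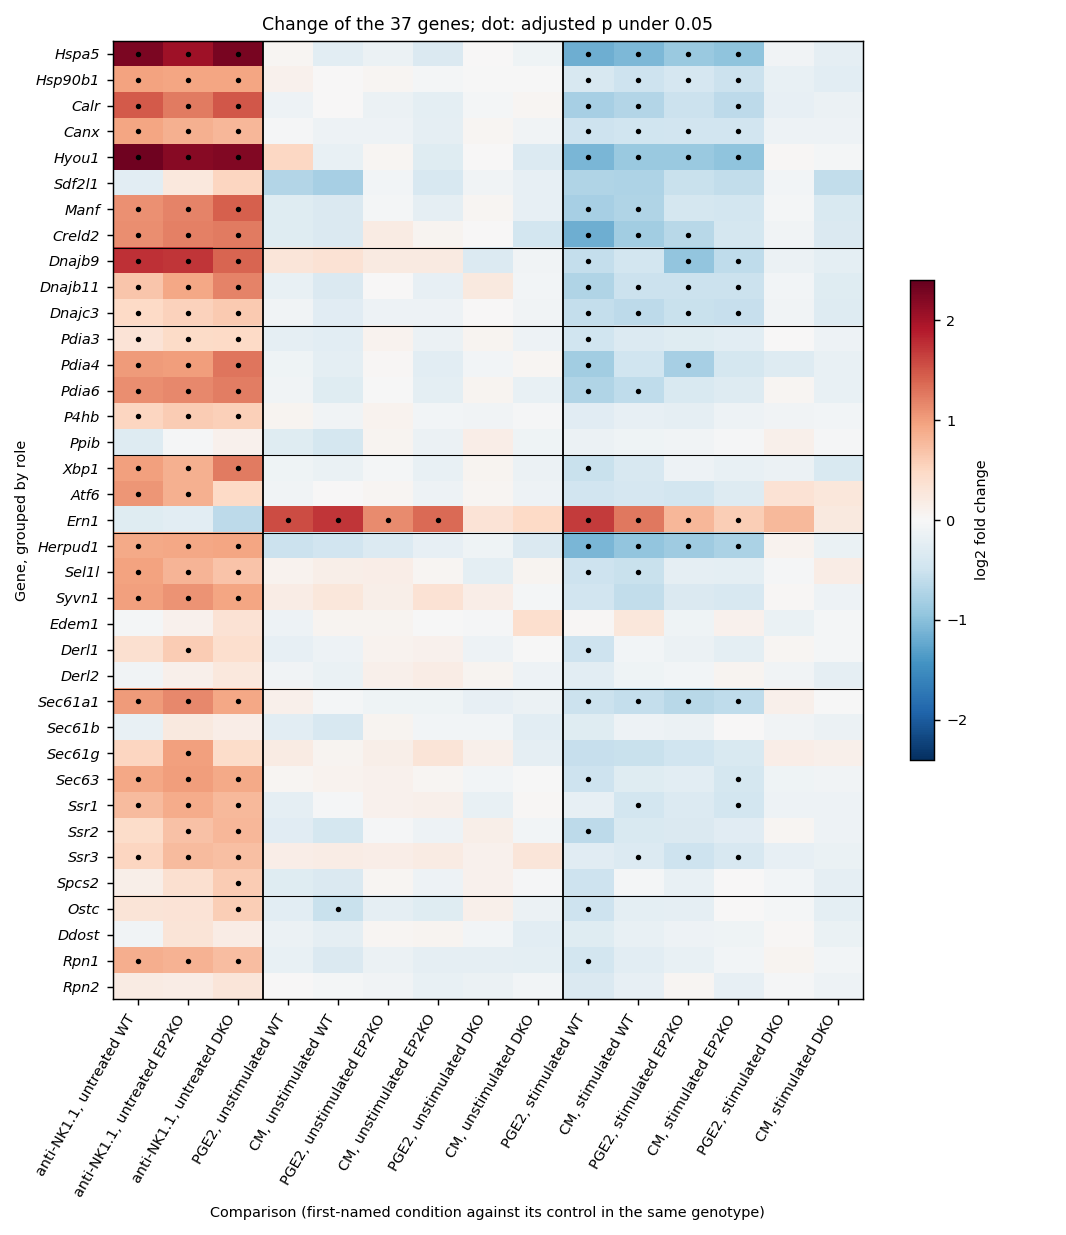
Log2 fold change of each of the 37 genes (rows, grouped by role) in 15 comparisons (columns), where a dot marks an adjusted p under 0.05. Stimulation of untreated DKO, EP2KO and WT cells raised 26, 27 and 24 genes, PGE2 or CM in stimulated EP2KO and WT cells lowered between 12 and 22, and Ern1 stands apart with its rise under PGE2 and CM.

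Without stimulation, Ern1 was the gene that PGE2 and CM raised. With PGE2 it had 72.6 and 60.8 CPM in WT, against 22.5, 22.3, 23.8 and 20.8 CPM in untreated WT, and with CM it had 80.8, 68.7, 78 and 68.1 CPM. The treated libraries lay far above the untreated ones, with log2 fold changes of 1.57 ± 0.23 for PGE2 (adjusted p = 1.28e-06) and 1.72 ± 0.20 for CM (adjusted p = 1.28e-09). PGE2 called no other gene of the list in unstimulated WT, where 1.91% of all genes rose and 1.05% fell. CM called 1 other, Ostc, an oligosaccharyltransferase subunit, where 4.55% of all genes rose and 3.68% fell. Ostc had 107, 109, 87.6 and 101 CPM with CM, against 155, 140, 128 and 164 CPM in untreated WT, with no overlap and a log2 fold change of -0.53 ± 0.18 (adjusted p = 0.0483). That call was lost in 7 of the 8 fits that each left out 1 library. Sdf2l1 and Rpn1 had the next smallest p-values and did not pass the test. Sdf2l1 had 33.1, 38.9, 32.9 and 35.1 CPM with CM, against 66.9, 59, 41.9 and 75.6 CPM in untreated WT, at -0.80 ± 0.32, and Rpn1 was at -0.34 ± 0.14.

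In unstimulated DKO cells Ern1 had 20.1, 30.7 and 36.6 CPM with PGE2 and 31.3, 34.3 and 32.3 CPM with CM, against 19, 23.7 and 27.4 CPM untreated. In unstimulated EP2KO cells it had 65.8, 49.1, 72.9 and 55.4 CPM with PGE2 and 75, 60, 91.6 and 57.2 CPM with CM, against 25.4, 20.3, 30.5 and 34.3 CPM untreated. Treated and untreated EP2KO libraries did not overlap for either treatment, while in DKO they overlapped with PGE2 and not with CM. The log2 fold changes in DKO were 0.32 ± 0.24 with PGE2 and 0.48 ± 0.24 with CM, neither called. In EP2KO they were 1.14 ± 0.19 and 1.35 ± 0.19, both called, and Ern1 was the 1 gene of the 37 called with either treatment, where 1.75% of all genes rose and 1.4% fell with PGE2, and 2.23% rose and 2.14% fell with CM. In DKO edgeR and DESeq2 called none of the 37 and no gene of the whole table with either treatment, and an unadjusted p under 0.05 was held by 184 genes of the table with PGE2, none of them among the 37, and by 485 with CM, 4 of them among the 37. The difference of the Ern1 change, DKO minus WT, was -1.25 ± 0.33 for PGE2 (adjusted p = 0.0638) and -1.24 ± 0.31 for CM (adjusted p = 0.0586), which missed the threshold. Both calls turned on the setting: with a replicate block the adjusted p was 0.0014 for PGE2 and 0.00407 for CM, and with a minimum count of 30 it was 0.0471 and 0.0363. DESeq2 gave 0.0812 for PGE2 and 0.0369 for CM, and when single libraries were left out the adjusted p ran from 0.0453 to 0.432 for PGE2 and from 0.054 to 0.312 for CM.

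After stimulation, PGE2 lowered much of the list in WT cells. With PGE2 22 of the 37 genes fell and 1, Ern1, rose, where 9.63% of all genes fell and 6% rose. The median log2 fold change was -0.50 over the 37 genes and -0.05 over all genes. Summed over the list, the share of counts was 0.77% ± 0.0229 with PGE2 and 1.2% ± 0.107 in untreated stimulated WT (SD, n = 4 each). Within that sum Hspa5 alone averaged 1220 CPM with PGE2 and 2757 CPM untreated. Of the 22 genes that fell, 19 were among the 24 that rose on stimulation of untreated WT, and the other 3 were Derl1, Ssr2 and Ostc. Both comparisons use the untreated stimulated WT libraries, so this overlap is a description. The NK cell markers summed to 0.615% ± 0.0435 of counts with PGE2 and 0.809% ± 0.174 without, and mitochondrial genes to 9.67% ± 0.92 with PGE2 and 8.66% ± 1.3 without (SD, n = 4 each), and their part in the result was not tested.

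Of the 8 chaperones and cofactors, 7 fell. Hspa5 had 1421, 1269, 1075 and 1114 CPM in stimulated WT with PGE2, against 2886, 2757, 2724 and 2662 CPM in untreated stimulated WT. Each treated library was below each untreated one and above each unstimulated one. The log2 fold change was -1.18 ± 0.13 (adjusted p = 1.22e-10). Hyou1 had 62.6, 49.8, 35.1 and 34.3 CPM with PGE2, against 99.8, 120, 95.1 and 77.1 CPM untreated, at -1.1 ± 0.21. Creld2 had 54, 66.5, 82.8 and 86.2 CPM with PGE2, against 133, 104, 208 and 209 CPM untreated, at -1.17 ± 0.18. In both genes treated and untreated libraries did not overlap, and the treated Creld2 libraries overlapped those of unstimulated untreated WT, which ran from 59.1 to 85.6 CPM. Hsp90b1 had 935, 882, 791 and 968 CPM with PGE2, against 1155, 1172, 1247 and 1114 CPM untreated, a smaller change of -0.39 ± 0.12 without overlap. Calr, Manf and Canx fell by 0.80, 0.80 and 0.49 on the log2 scale. Sdf2l1 had 12.9, 29.1, 29.2 and 51.9 CPM with PGE2, against 33.5, 25.9, 67.7 and 79.4 CPM untreated, and did not pass the test.

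The J-domain genes Dnajb11, Dnajb9 and Dnajc3 all fell, by 0.72, 0.58 and 0.57 on the log2 scale. Of the isomerases Pdia4, Pdia6 and Pdia3 fell, while P4hb and Ppib did not pass the test. Pdia6 had 261, 283, 289 and 283 CPM with PGE2, against 391, 362, 505 and 584 CPM untreated, with no overlap and a log2 fold change of -0.72 ± 0.13. Pdia4 had 202, 210, 175 and 222 CPM with PGE2, against 369, 365, 401 and 312 CPM untreated, also apart, at -0.84 ± 0.20. In ER-associated degradation Herpud1, Sel1l and Derl1 fell. Herpud1 had 54, 62.3, 85.7 and 83.5 CPM with PGE2, against 107, 85.6, 195 and 227 CPM untreated, and its log2 fold change was -1.1 ± 0.19. Replicate 2 of the untreated libraries was within the treated range. Sel1l fell by 0.50 and Derl1 by 0.50 on that scale. In the translocon group Sec61a1, Sec63 and Ssr2 fell, by 0.51, 0.50 and 0.62, and in the oligosaccharyltransferase Ostc and Rpn1 fell, by 0.49 and 0.44.

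The sensor and factor genes did not move together. Xbp1 had 171, 166, 216 and 229 CPM with PGE2, against 185, 195, 367 and 382 CPM in untreated stimulated WT, which overlapped, at -0.53 ± 0.17 (adjusted p = 0.025). Ern1 had 65.1, 59.8, 54.5 and 55.4 CPM with PGE2, against 25.9, 19.4, 18.3 and 9.35 CPM untreated. Its groups were far apart, and it rose by 1.68 ± 0.21 (adjusted p = 1.58e-09). Atf6 had 98.6, 82.2, 66.2 and 80.9 CPM with PGE2, against 136, 145, 75.9 and 95 CPM untreated, and at -0.46 ± 0.18 (adjusted p = 0.0741) it did not pass the test.

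These counts also depended on the untreated stimulated WT pairs. Without replicates 1 and 2, 24 genes were called with PGE2, and without replicates 3 and 4, 11. Of the 23 called with all libraries, 6 were called in both fits: Hspa5, Calr, Hyou1, Creld2, Pdia4 and Ern1. Without replicates 3 and 4, Xbp1, Ssr2 and Ostc stood at 0.07, 0.13 and 0.05 and were not called. With library totals in place of TMM factors, 13 genes of the list were called and the median of all genes was 0.07, and the share of rises among all calls was 60.6%, against 38.4% with TMM.

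**Figure D3:**
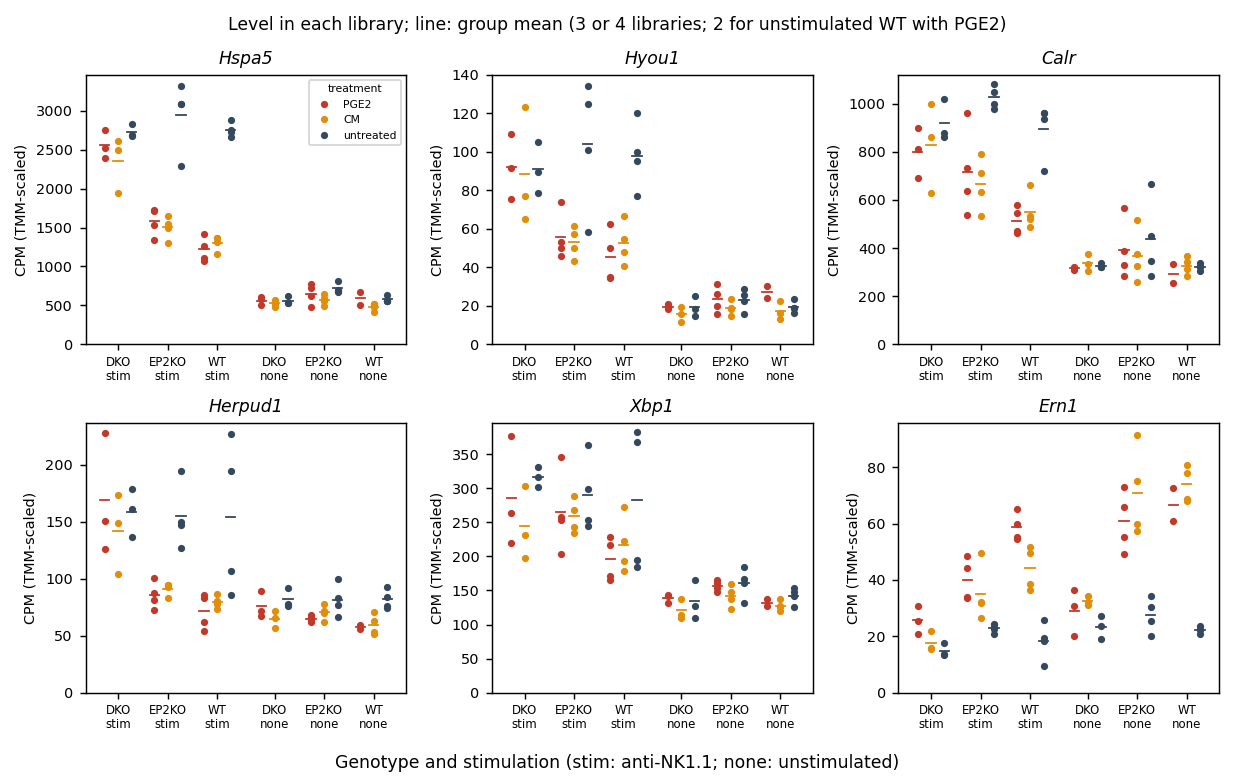
CPM of Hspa5, Hyou1, Calr, Herpud1, Xbp1 and Ern1 in each library (points) with group means (lines), for PGE2, CM and untreated cells of each genotype with and without anti-NK1.1. Hspa5 averaged 1220, 1303 and 2757 CPM in stimulated WT with PGE2, with CM and untreated, and Ern1 averaged 58.7, 44.1 and 18.2 CPM in the same groups.

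Conditioned medium also lowered chaperone genes in stimulated WT and raised Ern1. With CM 15 genes fell and Ern1 rose, where 9.22% of all genes fell and 6.2% rose, and the median was -0.45 over the list and -0.04 over all genes. Of the 8 chaperones 7 fell, of the 4 oligosaccharyltransferase genes none was called. Of the 15 genes, 13 also fell with PGE2, and the other 2 were Ssr1 and Ssr3 of the translocon-associated complex, in comparisons that share the untreated libraries. Hspa5 had 1319, 1371, 1365 and 1157 CPM with CM, at -1.08 ± 0.13 against untreated. Ern1 had 49.4, 36.6, 51.6 and 38.7 CPM with CM, at 1.27 ± 0.21. Both stood well clear of the untreated libraries. Without untreated replicates 1 and 2, 19 genes were called, and without 3 and 4, 11, and the 6 called in both fits were Hspa5, Hsp90b1, Hyou1, Dnajc3, Ern1 and Ssr1.

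CM and PGE2 were compared directly in stimulated WT. No gene of the list differed by edgeR or DESeq2, and 4 had an unadjusted p under 0.05, where 0.00933% of all genes were called higher with CM and 0% lower. The log2 difference, CM minus PGE2, ran from -0.41 for Ern1 to 0.45 for Spcs2, with a median of 0.12. For Hspa5 it was 0.10 ± 0.13.

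The response to anti-NK1.1 was also read under each treatment. In WT cells with PGE2, 6 genes rose on stimulation, where 5.29% of all genes rose and 2.97% fell: Hspa5, Hsp90b1, Calr, Dnajb9, Ssr1 and Rpn1. That comparison has 2 unstimulated libraries, and the count ran from 1 to 8 when single libraries were left out, with 1 without replicate 4 of unstimulated WT with PGE2 and 3 without replicate 2. In WT cells with CM, 18 genes rose and Ern1 fell, where 9.88% of all genes rose and 6.99% fell. Hspa5 rose by 1.04 ± 0.16 with PGE2, 1.43 ± 0.13 with CM and 2.26 ± 0.13 untreated. Hyou1 was at 0.74 ± 0.30 with PGE2, which did not pass the test, and rose by 1.61 ± 0.27 with CM and 2.33 ± 0.24 untreated.

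**Figure D4:**
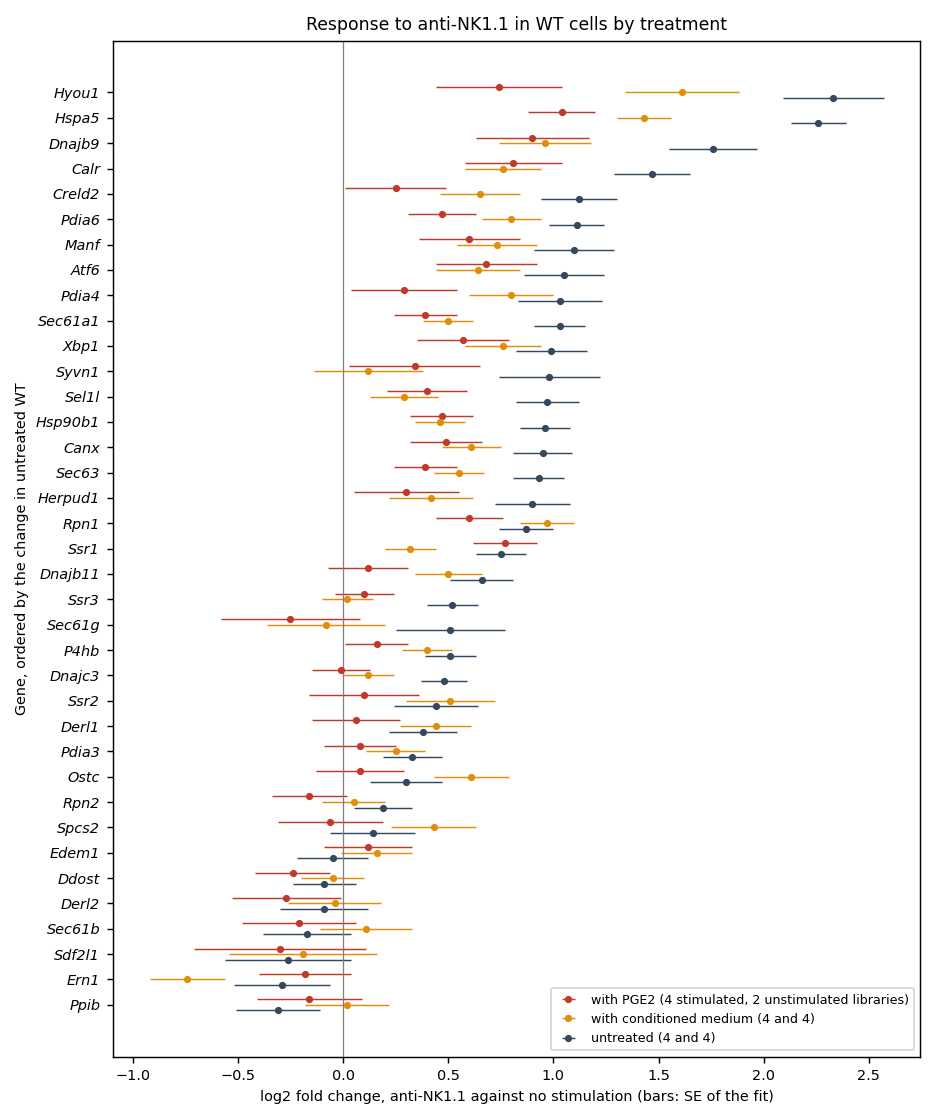
Log2 fold change on anti-NK1.1 in WT cells with PGE2, with CM and untreated, for each of the 37 genes, with the SE of the fit as bars. Hspa5 is at 1.04 with PGE2, 1.43 with CM and 2.26 untreated, whereas Rpn1 is at 0.60, 0.97 and 0.87.

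Whether a treatment acted differently with and without stimulation was tested as an interaction. For PGE2, Hspa5 at -1.21 ± 0.21 (adjusted p = 0.000173) and Hyou1 at -1.59 ± 0.38 (adjusted p = 0.0135) were called, 2 of 37, where 0.849% of all genes were called lower and 0.457% higher. For CM, Hspa5 was called at -0.83 ± 0.18 (adjusted p = 0.00585), 1 of 37, where 1.35% of all genes were called lower and 0.839% higher. The median over the list was -0.43 for PGE2 and -0.35 for CM, and over all genes -0.04 and -0.02. Hspa5 was called with either untreated stimulated pair left out, and Hyou1 was lost for PGE2 without replicates 1 and 2, at -1.31 (adjusted p = 0.0701). The PGE2 interaction also rests on 2 unstimulated libraries with PGE2. When single libraries were left out, its value ran from -1.39 to -1 for Hspa5 and from -1.77 to -1.41 for Hyou1. The Hyou1 call was lost in 2 of these 14 fits. Leaving out either unstimulated library with PGE2 leaves 1 in that group. The interaction of Ern1 with PGE2 was 0.11 ± 0.31, not called, and its rise with PGE2 was called in both states.

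The receptor mutants were compared next. In stimulated DKO cells neither PGE2 nor CM called any of the 37 genes by edgeR or DESeq2, and 1 gene with each had an unadjusted p under 0.05. In the whole table edgeR called 0% of genes with PGE2, and with CM 0.056% higher and 0.0187% lower. The treated DKO groups are those with the widely spaced replicates 1 and 3, and none of the 37 was called when any 1 of their libraries was left out. In stimulated EP2KO cells PGE2 lowered 12 genes and raised Ern1, where 3.9% of all genes fell and 3.39% rose, and CM lowered 13 and raised Ern1, where 5.91% fell and 4.5% rose. The medians over the list were -0.06 for PGE2 and -0.15 for CM in DKO, and -0.35 and -0.37 in EP2KO. In stimulated EP2KO and WT cells, 8 genes fell with each treatment: Hspa5, Hsp90b1, Canx, Hyou1, Dnajb11, Dnajc3, Herpud1 and Sec61a1. They make up 21.6% of the list, against 2.53% of all genes that fell in all 4 comparisons. Within a genotype those comparisons share untreated libraries. When single libraries were left out, the Canx call was lost in 3 to 5 of 8 fits in each of the 4 comparisons. Hsp90b1 was lost in 4 of 8 with PGE2 in WT and 5 of 8 with PGE2 in EP2KO. Dnajb11 was lost in 3 of 8 in each comparison except PGE2 in WT. With either untreated stimulated WT pair left out, Hspa5 and Hyou1 alone of the 8 genes kept both WT calls.

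Hspa5 had 2390, 2526 and 2757 CPM in stimulated DKO cells with PGE2 and 1938, 2495 and 2614 CPM with CM, against 2827, 2693 and 2674 CPM untreated. In stimulated EP2KO cells it had 1731, 1538, 1338 and 1715 CPM with PGE2 and 1650, 1550, 1307 and 1500 CPM with CM, against 3083, 3090, 3319 and 2286 CPM untreated. All treated EP2KO libraries were below all untreated ones, as in WT, while treated DKO libraries overlapped the untreated ones with PGE2 and lay just below them with CM. The log2 fold changes with PGE2 were -0.09 ± 0.15 in DKO, -0.90 ± 0.13 in EP2KO and -1.18 ± 0.13 in WT.

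Herpud1 had 228, 151 and 126 CPM in stimulated DKO cells with PGE2, against 179, 161 and 137 CPM untreated. In stimulated EP2KO cells it had 81.7, 87.8, 101 and 72.6 CPM with PGE2, against 147, 150, 195 and 127 CPM untreated. It overlapped in DKO and not in EP2KO. Sec61a1 had 205, 182 and 221 CPM in stimulated DKO cells with PGE2, against 171, 213 and 174 CPM untreated. In stimulated EP2KO cells it had 136, 147, 147 and 122 CPM with PGE2, against 223, 218, 251 and 190 CPM untreated. The channel gene too overlapped in DKO and not in EP2KO. Creld2 had 214, 140 and 131 CPM in stimulated DKO cells with PGE2, against 177, 175 and 160 CPM untreated, and Pdia6 had 594, 429 and 455 CPM, against 502, 515 and 410 CPM. In both genes the first DKO library with PGE2 was the highest of all 6.

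The difference of the PGE2 change was tested between genotypes. DKO minus EP2KO was called for Sec61a1 at 0.80 ± 0.17 (adjusted p = 0.00609) and Hspa5 at 0.80 ± 0.20 (adjusted p = 0.0179), where 0.466% of all genes were called higher and 0.485% lower. The Hspa5 call was lost in 7 of 14 fits that each left out 1 library, with adjusted p up to 0.0777. DKO minus WT, a comparison added after seeing the data, was called for 6 genes, where 2.59% of all genes were called higher and 1.68% lower. They were Hspa5 at 1.08 ± 0.20, Hyou1 at 1.12 ± 0.30, Creld2 at 1.09 ± 0.26, Pdia6 at 0.77 ± 0.20, Herpud1 at 1.18 ± 0.27 and Sec61a1 at 0.63 ± 0.17. With untreated stimulated WT replicates 1 and 2 left out 14 genes were called, with replicates 3 and 4 left out 3, and without the first DKO library with PGE2 3. Hspa5 was the 1 of the 6 called with either WT pair left out. EP2KO minus WT called none of the 37 and 0% of all genes by edgeR and none of the 37 by DESeq2, where 2 of the 37 had an unadjusted p under 0.05.

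For CM, DKO minus WT was called for Hspa5 at 0.86 ± 0.20 (adjusted p = 0.00838), where 0.737% of all genes were called higher and 0.476% lower, and the call was lost in 1 of 14 fits that each left out 1 library. DKO minus EP2KO was called for none with edgeR, where 0.205% of all genes were called higher and 0.14% lower, 6 of the 37 had an unadjusted p under 0.05 and DESeq2 called 2. EP2KO minus WT was called for none by either tool, and 1 had an unadjusted p under 0.05.

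**Figure D5:**
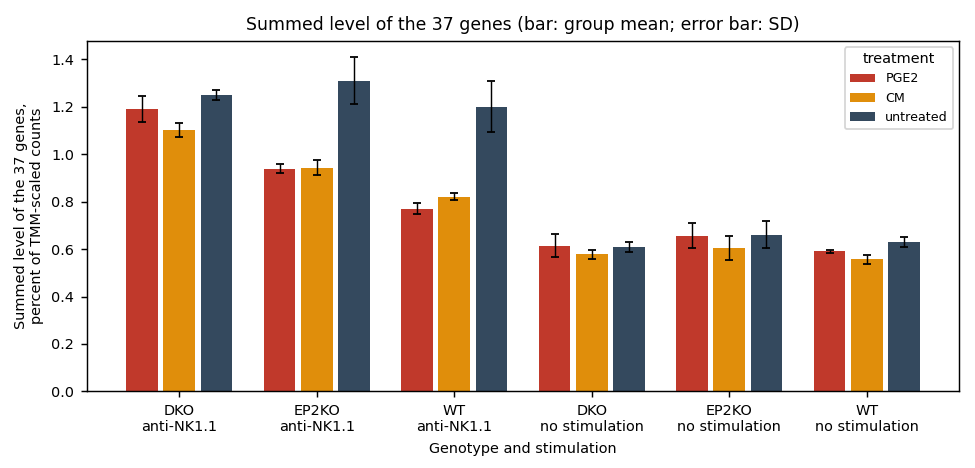
Summed level of the 37 genes as a percent of counts (group means, error bars SD over 2 to 4 libraries), for PGE2, CM and untreated cells of each genotype. With stimulation the PGE2 and untreated means were 1.19% and 1.25% in DKO, 0.939% and 1.31% in EP2KO, and 0.77% and 1.2% in WT.

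Over the 18 groups, Ern1 and Hspa5 kept different orders. The highest Ern1 means were 73.9 ± 6.46 CPM in unstimulated WT with CM and 71 ± 15.8 CPM in unstimulated EP2KO with CM (SD, n = 4 each). The lowest was 14.9 ± 2.23 CPM in untreated stimulated DKO (SD, n = 3). Neighbours in that order overlapped at every step but 1, where all stimulated WT libraries with CM (36.6 to 51.6 CPM) were below all those with PGE2 (54.5 to 65.1 CPM). For Hspa5, untreated stimulated EP2KO was highest at 2945 ± 452 CPM (SD, n = 4), and neighbours overlapped except at 2 steps. The first step separated the 5 highest groups, which were stimulated DKO cells with PGE2, with CM and untreated and the untreated stimulated EP2KO and WT cells, from the 4 stimulated EP2KO and WT groups with PGE2 or CM. The second separated those 4 groups from the 9 unstimulated ones.

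In stimulated DKO cells Ern1 had 20.8, 30.6 and 25.6 CPM with PGE2 and 15.8, 15.4 and 21.8 CPM with CM, against 13.9, 17.5 and 13.5 CPM untreated. The PGE2 libraries were above the untreated ones, at 0.78 ± 0.26, without passing the test over all genes (adjusted p = 1). In stimulated EP2KO cells it had 44.1, 33.6, 48.5 and 33.9 CPM with PGE2 and 26.6, 32, 49.6 and 32.1 CPM with CM, against 24.3, 20.8, 22.5 and 24.1 CPM untreated, and neither treatment overlapped. It rose by 0.80 ± 0.20 with PGE2, near the 0.78 in DKO, and the DKO minus EP2KO difference was not called for Ern1. With CM it rose by 0.59 ± 0.20 in EP2KO, a call lost in 5 of 8 fits that each left out 1 library.

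The 10 genes whose elements are printed above were counted beside the rest of the list, as a description with no test. For 7 of the 37 genes no promoter was at hand, so whether they carry an element is not known. All 10 rose with anti-NK1.1 in untreated DKO, EP2KO and WT cells. Of the 20 genes with a promoter in the table and no element, 11 rose in DKO, 11 in EP2KO and 10 in WT. Of all genes 16.4% rose in DKO, 18.4% in EP2KO and 23% in WT. Without untreated stimulated WT replicates 3 and 4, Dnajb11, Dnajc3, Herpud1 and Syvn1 of the 10 lost the WT call. Pdia3, P4hb and Xbp1 of the 20 lost it too. With PGE2 in stimulated EP2KO 7 of the 10 fell, against 3 of the 20, and with CM 7 against 4. Of all genes 3.9% fell with PGE2 and 5.91% with CM in stimulated EP2KO. With PGE2 in stimulated WT 9 of the 10 fell, Syvn1 being the exception, against 7 of the 20, and with CM 9 against 3. Of all genes 9.63% fell with PGE2 and 9.22% with CM there. Few of these falls were called with either untreated stimulated WT pair left out. With PGE2 they were Hspa5, Calr and Creld2 of the 10, Pdia4 of the 20 and Hyou1 of the 7 without a promoter. With CM they were Hspa5, Hsp90b1 and Dnajc3 of the 10, Ssr1 of the 20 and Hyou1 of the 7. The median log2 fold change with PGE2 in stimulated WT was -0.72 for the 10 genes and -0.39 for the 20. Of the 7 genes without a promoter in the table, 5, 6 and 4 rose with anti-NK1.1 in untreated DKO, EP2KO and WT. With PGE2 in stimulated WT 6 of the 7 fell, at a median of -0.51, and with CM 3. In stimulated EP2KO 2 of the 7 fell with PGE2 and 2 with CM. Genes differ in depth, and so in how small a change passes the test.

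Further genes of the pathway were read from lists that share no gene with the 37 and were also chosen with earlier results of these data known. The shares of all genes to set beside their counts are 23% that rose and 19.1% that fell with anti-NK1.1 in untreated WT, and 9.63% that fell and 6% that rose with PGE2 in stimulated WT. Of 15 other ER stress signalling genes tested, 9 rose and 3 fell with anti-NK1.1 in untreated WT, and 6 fell and 1 rose with PGE2 in stimulated WT. Atf4, the factor translated when PERK is active, was at 306 ± 46.7 CPM in untreated stimulated and 106 ± 8.97 CPM in untreated unstimulated WT (SD, n = 4 each), a log2 rise of 1.52 ± 0.11. It fell with PGE2 in stimulated WT by 0.87. Selenos, of ER-associated degradation, and Ppp1r15b, which helps remove phosphate from eIF2 alpha, rose with stimulation by 1.17 and 0.81 and fell with PGE2 by 0.63 and 0.78. Creb3l2, a membrane-bound transcription factor, rose with stimulation by 1.24 and was at 0.01 with PGE2. The 1 gene that rose with PGE2, named after its value was seen, was Eif2ak3, the sensor PERK. It averaged 24.1 ± 7.25 CPM with PGE2 and 13.2 ± 1.99 CPM untreated in stimulated WT (SD, n = 4 each), at 0.86 ± 0.23 (adjusted p = 0.00488). It fell on stimulation of untreated WT by 0.82, and without stimulation it rose with PGE2 by 0.80 ± 0.24 (adjusted p = 0.0499) and with CM by 0.64 ± 0.21 (adjusted p = 0.0424).

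Of 38 genes of ER to Golgi transport, 18 rose and 1 fell with stimulation, and 10 fell and 1 rose with PGE2. Lman1, the cargo receptor for glycoproteins, rose by 1.04 ± 0.14 and fell with PGE2 by 0.86. Mia2, an organizer of ER exit sites, Arfgap3, a regulator of vesicle coats, and Arf4, a small GTPase, rose by 1.05, 1.41 and 0.94 and fell with PGE2 by 0.44, 0.74 and 0.50. The gene that went the other way in both comparisons, named after its values were seen, was Kdelr1, a receptor that returns ER proteins from the Golgi, at -0.54 ± 0.17 with stimulation and 0.48 ± 0.17 with PGE2.

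Of 23 other translocon, signal recognition and glycosylation genes, 10 rose and 2 fell with stimulation, and 8 fell with PGE2. Srp72 of the signal recognition particle, its receptor gene Srpr, Stt3a, a catalytic subunit of the oligosaccharyltransferase, and Spcs3 of signal peptidase rose by 1.18, 1.06, 1.30 and 0.86. With PGE2 they fell by 0.40, 0.78, 0.60 and 0.36. Of 26 other ER folding genes, 10 rose and 3 fell with stimulation, and 4 fell and 1, Ganab, a glucosidase subunit, rose with PGE2. Txndc5, a disulfide isomerase, and Dnajc1, a J-domain protein, rose by 1.37 and 0.70 and fell with PGE2 by 0.66 and 0.47. Of 16 other genes of ER-associated degradation, 4 rose and 1, the lectin gene Os9, fell with stimulation, so the rises were near the share of all genes. With PGE2 edgeR called none of the 16, of which Os9, Erlec1, Ube2g2 and Ubxn4 had an unadjusted p under 0.05. In stimulated EP2KO, 3.9% of all genes fell with PGE2. There 2 of the 15 ER stress signalling, 2 of the 38 ER to Golgi and 4 of the 23 translocon genes fell. Of the 26 folding genes 2 fell, and of the 16 degradation genes none. In stimulated DKO PGE2 called none of these genes. The WT counts of these lists were not redone with a pair of untreated stimulated libraries left out.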

How the data were processed

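The deposited table holds counts per gene for 64 libraries of mouse NK cells. Per the labels' protocols, RNA was copied with barcoded oligo-dT primers that carry molecular identifiers, and the authors deposited these counts with no normalization. The build GRCm38 or mm10 and the tool DESeq2 are named per the submitters' processing notes. Not given in the sources used here are the aligner, the counter and whether counts are molecules or reads. Counts were scaled by TMM and genes were kept with filterByExpr (edgeR 4.0.16, R 4.3.3, minimum count 10), which left 10723 of 36273 genes and 99.21% of counts. One quasi-likelihood model with a mean for each of 18 groups was fitted to all 64 libraries with robust dispersion. P-values were adjusted over all genes by Benjamini-Hochberg, with a call at an adjusted p under 0.05. Levels are TMM-scaled CPM, and since 3' counts were not divided by length, they were compared within a gene, apart from sums over gene lists. The members and lists were chosen with earlier results of these data known. Genes given by library were Hspa5, Xbp1, Ern1, Atf6 and Hsp90b1, the 2 with the smallest p in each role, those with the smallest p for PGE2 in stimulated or CM in unstimulated WT (6 and 4), any called against the direction of most, and any called in a genotype interaction. From each further list, up to 4 called genes with the smallest p were named. Promoters came from RefSeq (GRCm38.p6), with no entry for Hyou1, Manf, Atf6, Derl1, Sec61a1, Ssr2 and Ostc, and gene positions from GENCODE (GRCm38). Protein sequences were not used here. The fits were tested on simulated data. Alternatives were other size factors, library totals, other filters, DESeq2 1.42.0, a block for the replicate number and leaving out libraries.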

Additional observations from a re-analysis of the deposited data

Results flagged for a closer look

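Single libraries of the named genes were compared with their group in 198 groups of 4, and 6 lay far from the other 3; chance gives about 1 in 20. Hspa5, the BiP gene, had 638 CPM in replicate 2 of untreated unstimulated WT, against 552 to 562 CPM in the others. Dnajb9, a J-domain gene, had 9.58 CPM in replicate 3 of unstimulated WT with CM, against 22.7 to 24.6 CPM, and 19.2 CPM in replicate 2 of unstimulated EP2KO with PGE2, against 27.8 to 29.2 CPM. Atf6 had 44.8 CPM in replicate 3 of untreated unstimulated WT, against 56.6 to 58.9 CPM. Herpud1 had 83.6 CPM in replicate 4 of stimulated EP2KO with CM, against 92.9 to 94.5 CPM. Rpn1 had 303 CPM in replicate 1 of stimulated WT with CM, against 200 to 215 CPM.

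Effects differed between groups in 12 tests of the difference itself, by edgeR's quasi-likelihood test. Between stimulated and unstimulated WT, the PGE2 change of Hspa5 differed by -1.21 (adjusted p = 0.000173) and that of Hyou1 by -1.59 (adjusted p = 0.0135), and the CM change of Hspa5 differed by -0.83 (adjusted p = 0.00585). Unstimulated WT with PGE2 had 2 libraries, and the Hyou1 call was lost without untreated stimulated replicates 1 and 2. It was also lost in 2 of 14 fits that each left out 1 library. In stimulated cells, the PGE2 change in DKO minus that in EP2KO was 0.80 for Hspa5 (adjusted p = 0.0179) and 0.80 for Sec61a1 (adjusted p = 0.00609). The Hspa5 call was lost in 7 of 14 fits that each left out 1 library. The PGE2 change in stimulated DKO minus that in stimulated WT was 1.08 for Hspa5 (adjusted p = 0.000133), 1.12 for Hyou1 (adjusted p = 0.0166), 1.09 for Creld2 (adjusted p = 0.00543), 0.77 for Pdia6 (adjusted p = 0.0109), 1.18 for Herpud1 (adjusted p = 0.00409) and 0.63 for Sec61a1 (adjusted p = 0.0195). The PGE2 comparison of DKO with WT was added after seeing the data. Hspa5 alone of its 6 genes was called with either untreated stimulated WT pair left out. When single libraries were left out, Hyou1, Creld2, Pdia6, Herpud1 and Sec61a1 lost the call in 3, 1, 3, 1 and 6 of 14 fits. For CM, DKO minus WT was 0.86 for Hspa5 (adjusted p = 0.00838), a call lost in 1 of 14 such fits. DKO and the other genotypes differ in sex-linked genes as well, and the part of sex was not tested.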

How the results depend on the processing

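Values below are numbers of the 37 genes called, and where a count changed the cause was not tested. Leaving out untreated stimulated WT replicates 1 and 2, or 3 and 4, gave 24 or 11 for PGE2 in stimulated WT (23 with all libraries), 5 or 2 for the PGE2 by stimulation interaction (2), 3 or 6 for that with CM (1), 14 or 3 for the PGE2 change in stimulated DKO minus WT (6) and 4 or 2 for the CM change (1). Without replicates 3 and 4, 4 genes called with all libraries changed sign: Pdia3 with anti-NK1.1 in WT (-0.01) and, with PGE2 in stimulated WT, Xbp1 (0.07), Ssr2 (0.13) and Ostc (0.05). Leaving out single libraries gave 1 to 8 for anti-NK1.1 in WT with PGE2 (6), 1 to 2 for CM in unstimulated WT (2), 15 to 23 for PGE2 in stimulated WT, 8 to 14 for PGE2 in stimulated EP2KO (13) and 8 to 13 for CM in stimulated EP2KO (14). It gave 1 to 3 for PGE2 by stimulation, 1 to 3 for PGE2 in DKO minus EP2KO (2), 0 to 2 for CM in DKO minus EP2KO (0), 3 to 8 for PGE2 and 0 to 3 for CM in stimulated DKO minus WT, and 0 to 1 for PGE2 in unstimulated DKO minus WT (0). The lowest counts came without untreated stimulated replicate 4 for PGE2 in WT, replicate 3 for PGE2 and replicate 2 for CM in EP2KO, and the first DKO library with PGE2 for DKO minus WT.

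With library totals in place of TMM, 13 genes were called for PGE2 in stimulated WT, 9 for CM in stimulated EP2KO, 1 for PGE2 in DKO minus EP2KO and 4 for PGE2 in stimulated DKO minus WT. The median of all genes for anti-NK1.1 was then -0.16 in DKO, -0.14 in EP2KO and -0.12 in WT (0.01 in each with TMM), and the share of rises among calls was 36.6%, 38.6% and 41.9% (54.3%, 55.1% and 54.7%). That share was 62.1% for CM in stimulated WT (40.2%), 70.4% and 66.4% for PGE2 and CM in stimulated EP2KO (46.5% and 43.2%), 50.6% and 37.8% for PGE2 and CM in unstimulated WT (64.5% and 55.3%) and 65.1% and 81.2% for the PGE2 and CM interactions (35% and 38.3%). With no filter on low counts, anti-NK1.1 in WT with PGE2 gave 3 and CM in stimulated EP2KO 8. A minimum count of 30 gave 1 for PGE2 and 1 for CM in unstimulated DKO minus WT (0 each), which was Ern1. DESeq2 gave 4 for CM by stimulation, 2 for CM in DKO minus EP2KO, 2 for CM in stimulated DKO minus WT and 1, Ern1, for CM in unstimulated DKO minus WT.

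The labels do not say whether the same replicate number in different groups marks a shared source. Within a genotype, correlations of same-numbered libraries, taken on deviations from group means, averaged 0.2 in WT, 0.23 in EP2KO and 0.26 in DKO. Libraries with different numbers averaged -0.07, -0.08 and -0.13. Same-numbered correlations went down to -0.12 in WT, and 51 of 64 libraries were closest to their own number. The main fit did not use the number, and what it marks was not tested. With the replicate number as a block, calls were 10 for anti-NK1.1 in WT with PGE2, 8 for CM in unstimulated WT, 2 for CM in unstimulated EP2KO (1), 7 and 6 for the PGE2 and CM interactions, 6 and 3 for PGE2 and CM in DKO minus EP2KO, 13 and 7 in stimulated DKO minus WT, and 1 and 1 in unstimulated DKO minus WT, the gene being Ern1. The block could not be fitted to the 2 comparisons of untreated unstimulated genotypes. Comparisons and settings not named here stayed within 1.5 times their count. Depth limits how small a change could be called in genes with few counts.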
